A study of Homo sapiens with 4 samples.

Results

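The genes described here are 36 interferon-stimulated genes and genes of interferon signalling, chosen by symbol from type I interferon targets and from the interferon-gamma response and its receptors. Of these, 35 were measured among the 15037 genes of the count table, all 35 passed the filter on low counts, and BST2 was not analysed here. They were measured by sequencing of polyadenylated RNA from A549 cells, a lung carcinoma line of human epithelial origin that was grown in DMEM. There were 2 libraries with a knockdown of PSME4 (PSME4 KD), the proteasome activator that caps the core particle, and 2 control libraries with a knockdown of RFP (control KD), and the series asked how depletion of PSME4 changes mRNA levels. The labels give neither the kind of knockdown reagent nor an interferon treatment, and nothing in them states that replicate libraries were grown as separate cultures, so p-values reflect the spread among these 4 libraries alone, which may be technical. PSME4, the targeted gene, stood at 158 and 180 CPM (read counts scaled to library size by TMM) in the control libraries against 75.3 and 85.1 CPM in the PSME4 KD libraries, a log2 fold change of −1.08 (SE 0.20, adjusted p = 0.000855, edgeR), so the libraries match their labels.

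Interferons are cytokines that switch cells into an antiviral and antigen-presenting state. Type I interferons bind a receptor made of IFNAR1 and IFNAR2, and the kinases JAK1 and TYK2 then activate a complex that includes STAT2 and IRF9 and binds the interferon-stimulated response element (ISRE) in target promoters. Interferon-gamma binds IFNGR1 and IFNGR2, and JAK1 and JAK2 then activate a factor that binds the gamma-activated site (GAS) and induces factors such as IRF1. The response can also start inside the cell, where sensors of viral RNA or of DNA in the cytosol act through the kinase TBK1.

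Between the groups, 2 of the 35 genes changed. LGALS3BP, a secreted glycoprotein that binds galectins, was 1.56-fold higher in PSME4 KD cells, and SAMD9, an antiviral factor, was 1.97-fold lower. These calls come from edgeR's quasi-likelihood test on the counts, with an adjusted p under 0.05 over 13497 genes, and by the same rule 10.6% of all tested genes were called, 4.56% higher and 6.0% lower. The members' 2 of 35 is a smaller share than that background. By DESeq2 1 member was called, against 8.53% of all genes, and by limma voom 2, against 10.3%. Genes without an adjusted p by DESeq2, among them the members ISG15, MX1, ISG20 and IFI44, count there as not called. The median log2 fold change (PSME4 KD over control KD) was −0.055 over the 35 genes and −0.0021 over all tested genes. It was above 0 in 15 members and in 49.8% of all tested genes, and no fitted change of a member exceeded 2-fold. Both calls were lost after a correction for the GC content of transcripts and in each fit with 1 library left out, as given with each gene below. Of 51 other genes of the pathway that passed the filter, TBK1, CGAS and NMI fell and TRIM14 rose, and these 4 also passed after the GC correction but, like the members, in no fit with 1 library left out.

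The promoter element through which type I interferons act is shown first, since more of these promoters hold it than not and it was found without any measured value. The ISRE core (GAAA, any 2 bases, GAAA), searched on both strands in the 250 bases before the start of each gene, was found in 18 of 32 members with a promoter in the RefSeq table (GRCh38.p14), and in 839 of 27305 promoters in all (3.07%). The GAS core (TTC, any 3 bases, GAA), which reads the same on both strands and whose final GAA can be the first letters of an ISRE core, was found in 7 of the 32 and in 6.78% of all. No promoter entry was matched for IFIT2, USP18, IFITM2 and APOL1. The stretches below are examples of the genes with a core, chosen after their values were seen: both members that passed, members with apart groups, and 2 of the other pathway genes that passed. Each reads 5′ to 3′ on the strand of the gene with the core in capitals. A core in capitals that begins with TTTC lies on the opposite strand.
SAMD9 (chr7:93118086-93118135, minus strand): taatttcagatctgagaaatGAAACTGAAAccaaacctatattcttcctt
LGALS3BP (chr17:78979952-78980001, minus strand): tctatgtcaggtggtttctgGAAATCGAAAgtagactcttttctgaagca
GBP1 (chr1:89065306-89065355, minus strand): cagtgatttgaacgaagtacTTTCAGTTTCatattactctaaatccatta
IFIT1 (chr10:89392487-89392536, plus strand): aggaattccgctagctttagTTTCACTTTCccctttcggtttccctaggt
ISG15 (chr1:1013370-1013419, plus strand): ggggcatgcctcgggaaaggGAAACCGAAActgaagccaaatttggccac
IFITM3 (chr11:320866-320915, minus strand): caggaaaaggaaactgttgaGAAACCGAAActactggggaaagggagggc
TRIM14 (chr9:98119223-98119268, minus strand): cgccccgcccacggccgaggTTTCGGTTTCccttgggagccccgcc
NMI (chr2:151289802-151289851, minus strand): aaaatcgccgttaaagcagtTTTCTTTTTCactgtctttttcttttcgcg
IRF1, with the GAS core (chr5:132490869-132490917, minus strand): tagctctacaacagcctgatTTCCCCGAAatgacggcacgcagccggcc
In these stretches the core of SAMD9 begins 136 bases before the start of the gene, that of GBP1 127 bases and that of IFIT1 116 bases, while the LGALS3BP core begins 58 bases before it. The IFIT1, ISG15 and IFITM3 promoters each hold a second core close by. A match to these letters is a description and does not show that a factor binds there.

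Fold changes of genes with and without an ISRE core had medians close to 0. Over 243 tested genes with a core the median log2 fold change was −0.0063, with 14 called higher and 21 lower. Over 10450 tested genes without one it was 0.0041, with 477 called higher and 567 lower. The share called was larger with a core than without, a difference that was not tested. Of all tested genes 4.56% were called higher and 6.0% lower. The median GC content of transcripts was 46.1% with a core and 47.9% without. After the GC correction 13 were called higher and 15 lower with a core, and 441 and 489 without, against 4.08% and 5.17% of all tested genes. Among the members, the median was −0.14 over 17 with a core and 0.025 over 14 without. Both members that passed, SAMD9 and LGALS3BP, have a core, and their values have opposite signs.

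Levels of the family in control cells spanned a wide range. Scaled to the longest transcript, as CPM per kilobase and averaged over the control KD libraries, the kinase JAK1 had the highest level at 113, at the 95.2 percentile of tested genes. It was followed by the interferon-gamma receptor chain IFNGR1 at 42.1, the membrane proteins IFITM2 and PLSCR1 at 33.4 and 32.5, LGALS3BP at 24.3, IFNGR2 at 23.7 and OAS1 at 23.6. The lowest were MX1, a GTPase that traps viral nucleocapsids, at 0.286, and IFI44 at 0.665, so 2 genes used widely as markers of an interferon response were near the bottom of the table. MX1 had 16 and 7 counts in control KD 1 and 2 and 14 and 15 in PSME4 KD 1 and 2. IFI44 had 14 and 12 counts in the control libraries and 9 and 12 in the PSME4 KD libraries, so a moderate change in either was not detectable at this depth.

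**Figure D1:**
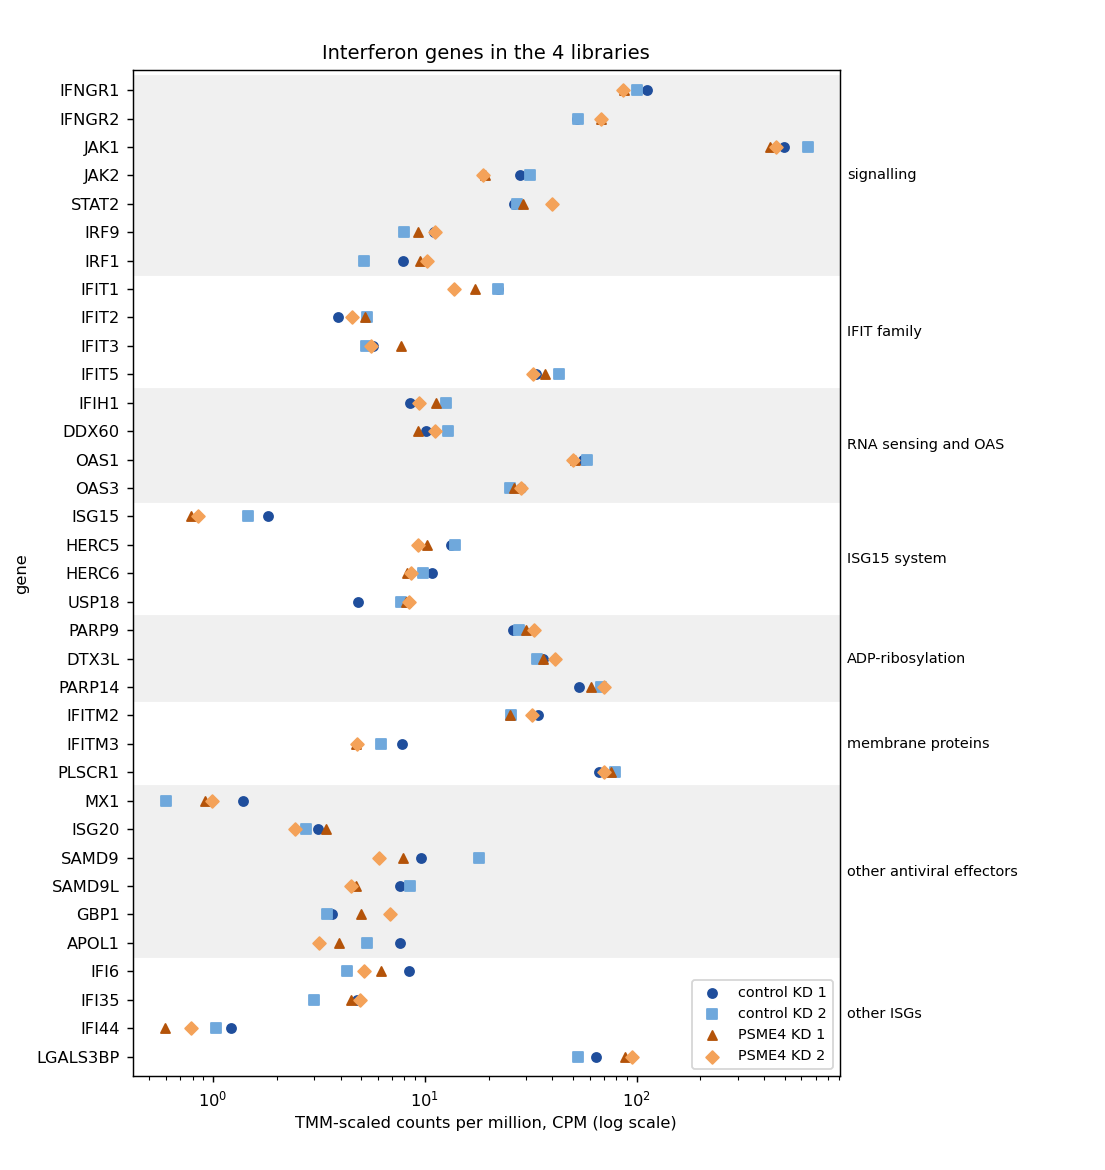
CPM of the 35 members in each of the 4 libraries, on a log axis, with genes grouped by role and 1 marker per library. JAK1 lies at the top of the range, between 426 and 642 CPM, and MX1, IFI44 and ISG15 lie at or under 1.82 CPM. The control libraries and the PSME4 KD libraries are apart for 20 genes and overlap for 15.

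Control and PSME4 KD libraries were apart in 20 of 35 members, 7 higher and 13 lower in PSME4 KD cells. Over all tested genes the groups were apart in 55.0%, 26.7% higher and 28.4% lower, so the total of 20 is near the background. Within the control group the libraries differed from each other by a median of 0.29 on the log2 scale over the members (absolute values), and the median absolute log2 fold change between the groups was also 0.29. In 15 of the 35 members the difference between the control libraries was larger than the fold change between groups. The PSME4 KD libraries differed by a median of 0.14.

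Among the receptors, kinases and transcription factors, none of the 7 genes passed by edgeR, DESeq2 or limma voom, while JAK2 and IRF1 were the 2 with an unadjusted p below 0.05 by edgeR, a level that 26.2% of all tested genes reached. JAK2, the kinase of the interferon-gamma receptor, stood at 28.1 and 31.5 CPM in control KD 1 and 2 against 19.2 and 18.8 CPM in PSME4 KD 1 and 2. Both PSME4 KD libraries lay below both control libraries, and the log2 fold change was −0.65 (SE 0.22, adjusted p = 0.0562, edgeR). It passed when 50 counts were required in 2 libraries (adjusted p = 0.0446, edgeR), and was at −0.40 after the GC correction (adjusted p = 0.171, edgeR). JAK1, shared by both interferon pathways, stood at 494 and 642 CPM in the control libraries against 426 and 453 CPM in the PSME4 KD libraries. Its groups were apart, but control KD 1 was nearer to the PSME4 KD libraries than to control KD 2, and its log2 fold change was −0.37 (SE 0.20, adjusted p = 0.233, edgeR). It was −0.16 without control KD 2 and −0.55 without control KD 1.

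The interferon-gamma receptor chains had values of opposite sign. IFNGR1, the ligand-binding chain, stood at 112 and 101 CPM in the control libraries against 86.8 and 86.4 CPM in the PSME4 KD libraries. IFNGR2, the signal-transducing chain, stood at 52.4 and 52.8 CPM in the control libraries against 67.5 and 67.9 CPM in the PSME4 KD libraries. Each pair of libraries was close together and apart from the other pair. The log2 fold changes were −0.29 (SE 0.19) and 0.36 (SE 0.20), neither past the threshold (adjusted p = 0.349 and 0.242, edgeR), and the difference between the chains was not tested. After the GC correction the values were nearer 0, at −0.085 for IFNGR1 and 0.17 for IFNGR2 (adjusted p = 0.797 and 0.564, edgeR).

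Of the transcription factors, STAT2, a subunit of the complex that binds the ISRE, stood at 26.5 and 27.1 CPM in the control libraries against 29.2 and 39.8 CPM in the PSME4 KD libraries. PSME4 KD 2 alone was far above the controls, and the log2 fold change was 0.37 (SE 0.22, adjusted p = 0.297, edgeR). It was 0.15 without that library and 0.57 without PSME4 KD 1. Its DNA-binding partner IRF9 stood at 10.99 and 7.997 CPM in the control libraries against 9.33 and 11.2 CPM in the PSME4 KD libraries. These overlap, and its log2 fold change of 0.11 (SE 0.27) turned to −0.085 after the GC correction. All 50-base windows of its transcript also occur in another annotated transcript model at the locus, so its counts are uncertain. IRF1, the factor induced by interferon-gamma, stood at 7.87 and 5.16 CPM in the control libraries against 9.52 and 10.2 CPM in the PSME4 KD libraries. Both PSME4 KD libraries were above both controls, and the log2 fold change was 0.60 (SE 0.28, adjusted p = 0.172, edgeR), from 151 counts in the control libraries and 301 over both PSME4 KD libraries. The IRF1 value moved with the control libraries, to 0.93 without control KD 1 and 0.33 without control KD 2.

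The IFIT genes encode proteins that bind viral RNA. None of the 4 passed by edgeR, DESeq2 or limma voom, and 1, IFIT1, had an unadjusted p under 0.05 by edgeR. IFIT1 stood at 22.1 CPM in both control libraries, against 17.3 and 13.8 CPM in PSME4 KD 1 and 2. The groups were apart, with a log2 fold change of −0.51 (SE 0.23, adjusted p = 0.157, edgeR), which was −0.32 without PSME4 KD 2 (adjusted p = 0.758, edgeR). The other members of the cluster had overlapping groups and log2 fold changes of 0.075 for IFIT2 (SE 0.32), 0.28 for IFIT3 (SE 0.30) and −0.14 for IFIT5 (SE 0.21). All 4 genes overlap the RefSeq span of LIPA on chromosome 10, and the labels do not state whether the counting used strand.

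Of the RNA sensors and oligoadenylate synthetases, none of IFIH1, DDX60, OAS1 and OAS3 passed by edgeR, DESeq2 or limma voom, and none had an unadjusted p under 0.05 by edgeR. The smallest p was that of OAS1, which makes the oligoadenylates that activate RNase L, at 55.7 and 58.4 CPM in the control libraries against 50.9 and 49.9995 CPM in the PSME4 KD libraries. Its groups were narrowly apart, with a log2 fold change of −0.18 (SE 0.20, adjusted p = 0.611, edgeR). IFIH1, the sensor MDA5, was at −0.030 (SE 0.27), DDX60, a helicase that cooperates with RNA sensors, at −0.16 (SE 0.26), and OAS3 at 0.039 (SE 0.22), all with overlapping groups.

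ISG15 is a ubiquitin-like protein that is attached to target proteins by HERC5 and removed by USP18. It had 21 and 17 counts in control KD 1 and 2 and 12 and 13 in PSME4 KD 1 and 2, which is 1.82 and 1.46 CPM against 0.788 and 0.853 CPM. The log2 fold change of −0.99 (SE 0.47, adjusted p = 0.173, edgeR) was the lowest of all members, but it rests on these few counts. HERC5 stood at 13.3 and 13.8 CPM in the control libraries against 10.2 and 9.32 CPM in the PSME4 KD libraries, a log2 fold change of −0.48 (SE 0.25), and HERC6 was at −0.29 (SE 0.26). USP18, which also dampens signalling at the type I receptor, had a value of the other sign, 0.39 (SE 0.29), and 23.4% of its 50-base windows occur in other genes, chiefly USP41. The groups of all 4 were apart, as were those of 55.0% of all tested genes. None of the 4 passed by edgeR or limma voom. ISG15 alone had an unadjusted p under 0.05 by edgeR, a level that 26.2% of all tested genes reached. DESeq2 gave no adjusted p for ISG15, and the others did not pass by it.

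The ADP-ribosylation genes PARP9 and PARP14, and the ubiquitin ligase DTX3L that partners PARP9, lie near each other on chromosome 3 and had values of the same sign. PARP9 stood at 26.04 and 27.7 CPM in the control libraries against 29.95 and 32.9 CPM in the PSME4 KD libraries, a log2 fold change of 0.23 (SE 0.21, adjusted p = 0.537, edgeR), or 0.35 after the GC correction. DTX3L was at 0.14 (SE 0.21) and PARP14 at 0.12 (SE 0.20), both with overlapping groups. None of the 3 passed by edgeR, DESeq2 or limma voom, and none had an unadjusted p under 0.05 by edgeR. PARP9 and DTX3L overlap in RefSeq, so reads at their shared end may have been counted for either or dropped.

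Of the membrane proteins, IFITM3, which blocks fusion of viruses with endosomes, stood at 7.79 and 6.19 CPM in the control libraries against 4.73 and 4.79 CPM in the PSME4 KD libraries. The groups were apart, with a log2 fold change of −0.55 (SE 0.30, adjusted p = 0.238, edgeR). Its near copy IFITM2, at 34.2 and 25.5 CPM against 25.3 and 32.1 CPM, had overlapping groups and a value of −0.055 (SE 0.22). Of the 50-base windows of the IFITM3 transcript 20.3% occur in another gene, chiefly IFITM2, so the split of counts between them is uncertain. The scramblase PLSCR1 was at 0.0066 (SE 0.20), between 66.1 and 79.1 CPM in all 4 libraries. None of the 3 passed by edgeR, DESeq2 or limma voom, and none had an unadjusted p under 0.05 by edgeR.

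Among 6 other antiviral effectors 1 fell, and the unadjusted p of 4 was below 0.05 by edgeR, 3 of them lower. That level was reached by 9 of all 35 members, 6 of them lower, and by 26.2% of all tested genes, 14.1% lower. SAMD9 (chromosome 7, 93099518 to 93117979 on GRCh38) stood at 9.60 and 18.0 CPM in control KD 1 and 2 against 7.88 and 6.10 CPM in PSME4 KD 1 and 2. The groups were apart, but control KD 2 was far above control KD 1, and control KD 1 was closer to the PSME4 KD libraries. SAMD9 fell by 0.98 on the log2 scale (SE 0.29, adjusted p = 0.0287, edgeR), from 320 counts in the control libraries and 213 in the PSME4 KD libraries. It was −0.45 once control KD 2 was left out (adjusted p = 0.373, edgeR) and −1.36 once control KD 1 was (adjusted p = 0.0807, edgeR). Leaving out PSME4 KD 1 gave −1.17 and leaving out PSME4 KD 2 gave −0.77 (adjusted p = 0.227 and 0.366, edgeR). By DESeq2 it narrowly missed the threshold (adjusted p = 0.0532).

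Its paralog SAMD9L is the neighbour on chromosome 7, from 93130056 to 93148385, and stood at 7.61 and 8.51 CPM in the control libraries against 4.73 and 4.46 CPM in the PSME4 KD libraries. The libraries of each group were close together and the groups apart, yet the log2 fold change of −0.81 (SE 0.29, adjusted p = 0.0703, edgeR) did not pass. APOL1, an interferon-induced apolipoprotein that lyses trypanosomes, stood at 7.61 and 5.33 CPM in the control libraries against 3.94 and 3.15 CPM in the PSME4 KD libraries. Its groups were apart, with a log2 fold change of −0.87 (SE 0.32, adjusted p = 0.0771, edgeR). After the GC correction APOL1 was at −0.96 and was the 1 member that passed (adjusted p = 0.0420, edgeR). After that correction 9.25% of all tested genes were called, 4.08% higher and 5.17% lower.

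GBP1, a GTPase that coats intracellular bacteria, had a value of the other sign. It stood at 3.63 and 3.44 CPM in the control libraries against 4.99 and 6.82 CPM in the PSME4 KD libraries, a log2 fold change of 0.74 (SE 0.32, adjusted p = 0.136, edgeR), from 82 and 180 counts. The groups were apart, and 13.3% of its 50-base windows occur in other genes, chiefly the pseudogene GBP1P1. With the replicate block and the GC correction together it passed narrowly (0.87, adjusted p = 0.0494, edgeR). MX1 (−0.059, SE 0.51) and the exonuclease ISG20 (−0.0056, SE 0.36) had overlapping groups.

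The last 4 members are IFI6, IFI35, IFI44 and LGALS3BP, of which LGALS3BP rose. LGALS3BP (chromosome 17, 78971255 to 78979923 on GRCh38) stood at 64.4 and 52.6 CPM in control KD 1 and 2 against 87.9 and 94.7 CPM in PSME4 KD 1 and 2. Both PSME4 KD libraries were above both controls, with a log2 fold change of 0.64 (SE 0.20, adjusted p = 0.0372, edgeR), from 1356 counts in the control libraries and 2781 in the PSME4 KD libraries. It was between 0.51 and 0.79 with any 1 library left out, past the threshold in none of these fits (smallest adjusted p 0.0994, edgeR). LGALS3BP was also the 1 member with an adjusted p under 0.05 in the authors' deposited table, where 6.46% of all rows had one, with a log2 value of −0.65 for control over PSME4 KD and an adjusted p of 0.0330. IFI6, a mitochondrial survival protein, was at −0.16 (SE 0.32) and IFI35 at 0.27 (SE 0.33) with overlapping groups, and IFI44 at −0.69 (SE 0.51) from few counts.

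**Figure D2:**
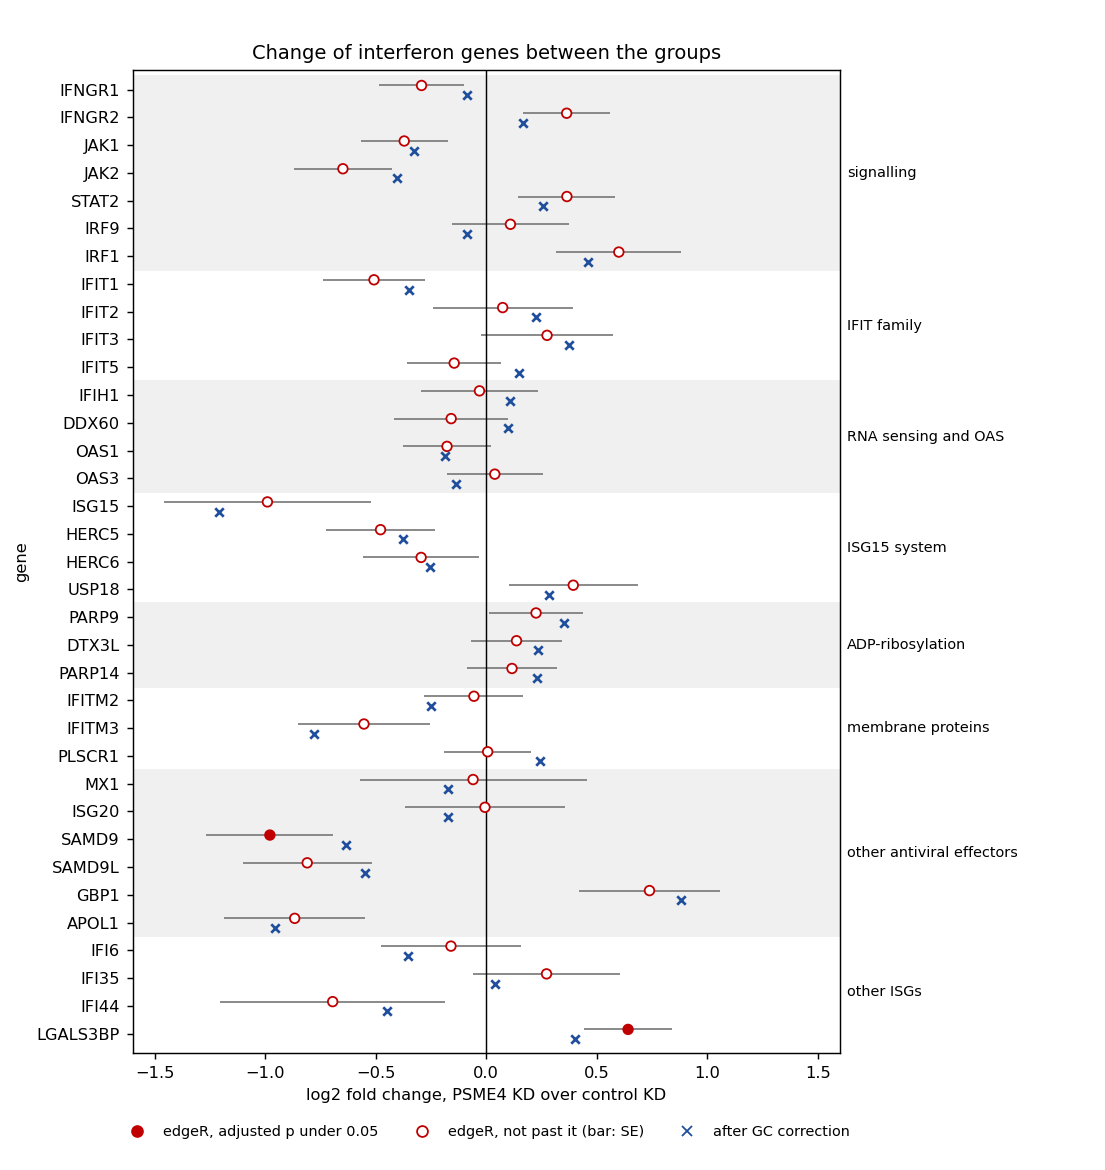
Log2 fold change of each member, PSME4 KD over control KD, with its SE as a bar (filled where the adjusted p was under 0.05 by edgeR), and a cross for the value after the GC correction. The filled points are SAMD9 at −0.98 and LGALS3BP at 0.64, and 15 members lie above 0 and 20 below it.

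Fold changes of all genes followed the GC content of their transcripts, and over the members the relation had the same sign. Spearman's rho between GC content and log2 fold change was 0.41 across 13154 genes and 0.30 across the 35 members, which are genes and not independent replicates. SAMD9 has the lowest GC content of the members, 36.05%, and LGALS3BP one of the highest, 60.5%, and each value had the sign of the trend. Whether GC content accounts for either change was not tested. Among all tested genes with a GC content under 45%, 85 were called higher and 541 lower, and of those at 45% or more 515 were higher and 260 lower. The median log2 fold changes of these sets were −0.22 and 0.14. Over the members they were −0.14 under 45% and −0.031 at 45% or more. After the correction the median was −0.085 over all members and 0.012 over all tested genes. Within the control group, control KD 2 over control KD 1 had medians of 0.21 and −0.15 over the same 2 sets of all tested genes. The control libraries thus also differed by GC content. The cause of the trend was not tested. After the correction SAMD9 was at −0.63 (adjusted p = 0.102, edgeR) and LGALS3BP at 0.40 (adjusted p = 0.127, edgeR). ISG15, with the highest GC content of the members (63.4%), and IFITM3 (56.9%) were below 0 against this trend, at −1.21 and −0.78 after the correction (adjusted p = 0.0923 and 0.0628, edgeR).

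**Figure D3:**
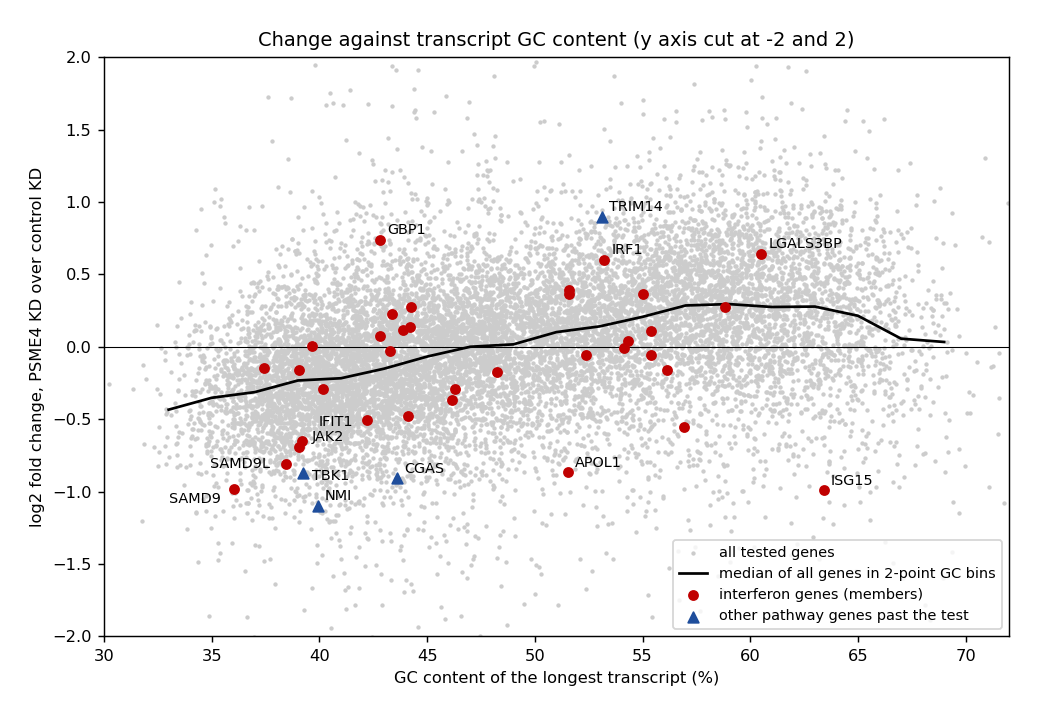
Log2 fold change against the GC content of the longest transcript, in percent, for all tested genes (grey, with the median per bin of GC content as a line), the members (red circles) and the 4 other pathway genes that passed (blue triangles). SAMD9 and LGALS3BP lie near the ends of the members' GC range on the side of the line's slope, and APOL1, ISG15 and TRIM14 lie away from the line.

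Of 83 other genes of the pathway, 59 were measured, 1 of them (RIGI) under the older symbol DDX58, and 51 passed the filter. In PSME4 KD cells 3 fell and 1 rose, against 6.0% and 4.56% of all tested genes, and the median log2 fold change was 0.044. Of 11 tested genes of nucleic acid sensing 2 were called lower and 0 higher, with 5 values above 0 and 6 below. At an unadjusted p under 0.05 by edgeR 3 were lower and 2 higher, against 14.1% and 12.1% of all tested genes. The called genes, TBK1 and CGAS, act upstream of interferon production. TBK1 (chromosome 12, 64452120 to 64502114), the kinase that phosphorylates IRF3, stood at 54.2 and 64.0 CPM in the control libraries against 36.2 and 28.4 CPM in the PSME4 KD libraries. The groups were well apart, and TBK1 fell by 0.87 on the log2 scale (SE 0.21, adjusted p = 0.00879, edgeR), from 1370 counts in the control libraries and 984 in the PSME4 KD libraries. CGAS (chromosome 6, 73423711 to 73452297), the sensor of DNA in the cytosol, stood at 13.0 and 11.2 CPM in the control libraries against 6.90 and 5.97 CPM in the PSME4 KD libraries. All 4 values keep the groups apart, and CGAS fell by 0.91 (SE 0.27, adjusted p = 0.0288, edgeR). In the authors' deposited table CGAS was not under 0.05 (adjusted p of 0.0616). TBK1, NMI and TRIM14 were, 3 of 59 pathway genes, where 6.46% of all rows were.

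NMI, an interferon-induced protein that binds STAT and MYC family factors, had the lowest value among the pathway genes tested. It stood at 27.0 and 17.0 CPM in the control libraries against 13.4 and 7.15 CPM in the PSME4 KD libraries, so the groups were apart although each pair of libraries was spread. NMI fell by 1.10 (SE 0.28, adjusted p = 0.0120, edgeR), and the value lay between −1.62 without PSME4 KD 1 and −0.69 once PSME4 KD 2 was left out, with −0.73 without control KD 1. TRIM14, an adaptor in antiviral signalling at mitochondria, was the gene that rose. It stood at 12.5 and 13.6 CPM in the control libraries against 21.4 and 27.2 CPM in the PSME4 KD libraries, a log2 fold change of 0.90 (SE 0.24, adjusted p = 0.0149, edgeR), and it overlaps NANS in RefSeq. After the GC correction the values were −0.63 for TBK1, −0.79 for CGAS, −0.91 for NMI and 0.75 for TRIM14, with adjusted p-values from 0.0238 to 0.0430 by edgeR. None of the 4 passed with 1 library left out, where their adjusted p-values lay between 0.0889 and 0.385 by edgeR, and edgeR then called only 43 to 281 of all genes.

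**Figure D4:**
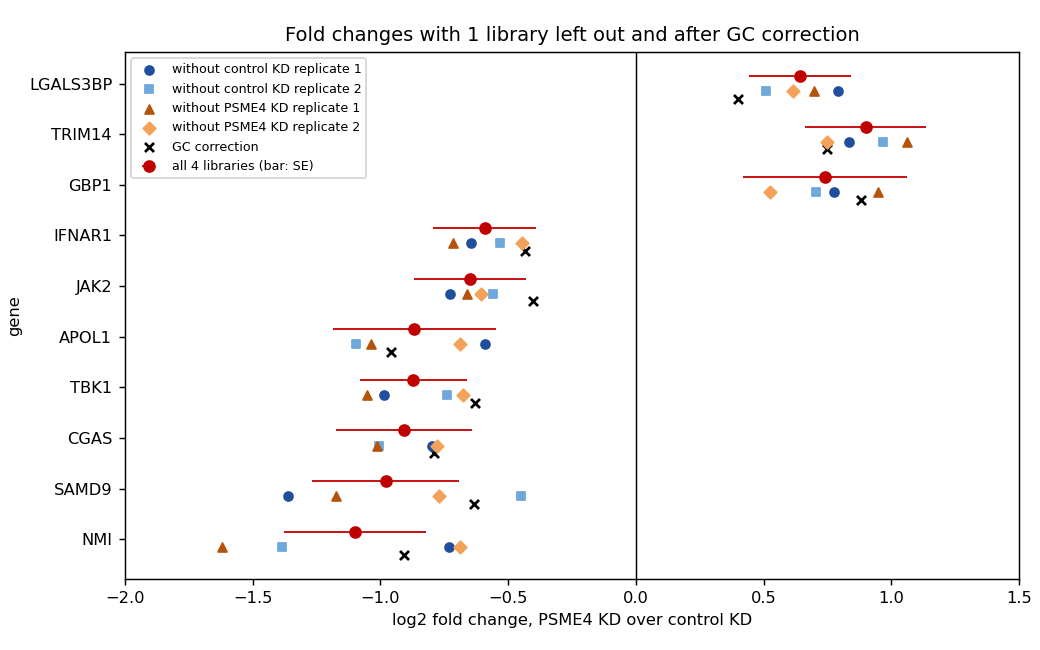
Log2 fold changes of 10 members and other pathway genes with all 4 libraries (red, bar for the SE), with each library left out in turn (coloured markers) and after the GC correction (cross). The 10 genes were not picked by a rule, and IRF9 and IL10RB, whose signs turn in some fits, are not shown. Every value shown keeps its sign. With 1 library left out SAMD9 ranges from −1.36 to −0.45, NMI from −1.62 to −0.69 and TRIM14 from 0.75 to 1.06.

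Among the other receptors and signalling genes none of 7 passed by edgeR or limma voom. By DESeq2 none passed either, with no adjusted p given for IFNLR1. IFNAR1, a chain of the type I receptor, was the 1 gene whose unadjusted p was below 0.05 by edgeR. It stood at 57.2 and 61.4 CPM in the control libraries against 42.6 and 36.02 CPM in the PSME4 KD libraries. The groups were apart, and the log2 fold change of −0.59 (SE 0.20, adjusted p = 0.0581, edgeR) passed in 1 of 13 alternatives, the one that required 50 counts in 2 libraries (adjusted p = 0.0433, edgeR). IFNAR2, the other chain, was at −0.38 (SE 0.21; −0.23 without control KD 1), with 58.7 and 47.7 CPM against 37.6 and 43.9 CPM, and 43.2% of its 50-base windows occur in other transcript models, chiefly that of a read-through gene. IL10RB was at −0.0056 (SE 0.20) and the interferon-lambda receptor IFNLR1 at 0.39 (SE 0.45) from few counts, between 0.082 and 0.79 with 1 library left out and 0.21 after the GC correction.

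PML, IFNE, IRF5 and TRIM25 had the next smallest p-values of the pathway genes and did not pass. PML, the organiser of nuclear bodies, was at 0.81 (SE 0.31, adjusted p = 0.0935, edgeR), the factor IRF5 at 0.67 (SE 0.29, adjusted p = 0.134, edgeR) and TRIM25, a ligase that activates RIG-I, at 0.48 (SE 0.21, adjusted p = 0.140, edgeR). IFNE, the only interferon gene that passed the filter, was at −0.76 (SE 0.31, adjusted p = 0.106, edgeR), with 104 and 69 counts in the control libraries and 66 and 68 in the PSME4 KD libraries, and it overlaps the noncoding gene MIR31HG. The IFNE value was −0.43 without control KD 1 and −0.45 after the GC correction, where IRF5 was at 0.43. The other listed interferon genes were not analysed here.

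Depth was 11766371 to 15208588 counts per library, with the control libraries the shallower ones. All 6 epithelial markers listed were measured, with a summed level of 3701 to 4583 CPM in the control libraries and 4006 to 5160 CPM in the PSME4 KD libraries. Of 8 leukocyte markers 3 were measured, CD14, CD68 and LYZ, with a sum of 29.1 to 33.8 CPM in the control libraries and 39.3 to 39.4 CPM in the PSME4 KD libraries, and of 5 fibroblast markers 3, with 17.2 to 21.2 CPM and 26.4 to 28.6 CPM. Of the fibroblast markers 1 was called higher (COL1A1) and 1 lower (PDGFRA) by edgeR. Neither had an adjusted p under 0.05 in the authors' deposited table. Defining leukocyte markers such as PTPRC were not analysed here, and the part of these markers in the results was not tested. In such bulk samples fewer cells that express a gene and less RNA per cell cannot be told apart.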

How the data were processed

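RNA was extracted with Trizol and chloroform and polyadenylated RNA was turned into sequencing libraries by the Lexogen SENSE kit, per the labels' protocols. DESeq2, STAR, cutadapt and build hg38 are named, per the submitters' processing notes. Tool versions, counter, strand use and annotation are left out as not given in the sources used here. One deposited table holds raw counts per gene, per the file headers, and no row had a largest count under 6. It also holds deposited signal values (counts divided by a size factor), deposited log2 values of a regularised log, and the authors' log2 fold change, p-value and adjusted p-values. Quoted from these are only the authors' fold change and adjusted p-value of LGALS3BP, the adjusted p-value of CGAS, and which genes or what share had an adjusted p under 0.05.

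The counts were fitted with edgeR 4.0.16 in R 4.3.3 (filterByExpr, TMM, glmQLFit and glmQLFTest, group as the only term, 2 residual degrees of freedom), with Benjamini-Hochberg adjustment over 13497 genes. The SE is the size of a log2 fold change over the root of its F. Alternatives were other scalings, filters and thresholds, DESeq2 1.42.0, limma voom 3.58.1, a replicate block, each library left out, and a lowess trend (span 0.4) on the GC content of the longest GENCODE 29 transcript, entered as an offset, which 97.5% of tested genes had. The main edgeR fit was tested on simulated counts, and the alternatives were not. Replicate libraries differed beyond counting noise (chi-square per degree of freedom 23.9 and 19.1). The members, lists and tests were chosen with earlier results of these data known. Genes are named by rule: members with an unadjusted p under 0.05, the smallest p of each role, all signalling members, and pathway genes that passed, receptors and 4 others. The result of 1 gene that the rule names is not reported here. Coordinates and promoters are from RefSeq, GRCh38.p14, the same assembly as hg38.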

Additional observations from a re-analysis of the deposited data

How the results depend on the processing

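With only 2 libraries in each group, few calls survive a smaller fit. The count of 2 members past the threshold stayed at 2 with no filter, with limma voom, with library size only and with the size factors of DESeq2, and was 3 with at least 50 counts in 2 libraries. It was 1 by DESeq2 (LGALS3BP), 1 after the GC correction (APOL1), 5 at an adjusted p under 0.10, and 0 in each fit with 1 library left out, where 2 to 7 had an unadjusted p under 0.05 by edgeR. The 4 other pathway genes stayed called in each alternative with all libraries, and 0 were called with 1 library left out, where 4 to 12 had an unadjusted p under 0.05 by edgeR. In those fits 1717 of 13739 genes (without PSME4 KD 2) to 3428 of 14023 (without control KD 1) had an unadjusted p under 0.05. Over all genes, 1426 were called, 616 higher and 810 lower, against 2240 at 0.10, 43 to 281 with 1 library left out, and 853 higher and 764 lower with library size only. The members' median log2 fold change was −0.012 with library size only and −0.12 to −0.015 with 1 library left out. PSME4 had an adjusted p of 0.000855 by edgeR, and with 1 library left out it lay between −1.17 and −0.97, with adjusted p-values of 0.0145 to 0.146. IRF9 turned negative after the GC correction (−0.085), with it and the replicate block (−0.085) and without control KD 2, and lay between −0.095 and 0.35 with 1 library left out. IL10RB turned positive with library size only (0.036), after the GC correction (0.22, also 0.22 with the block) and without PSME4 KD 1, and lay between −0.033 and 0.051 with 1 library left out. The causes were not tested.

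The replicate numbers do not pair the libraries by the labels, and same-numbered libraries did not deviate together (r = −0.043 over 8748 genes, which are not independent). With the replicate number as a block 2 members, 4 other pathway genes and 1554 genes in all were called, and with the block and the GC correction 2 members (GBP1 and APOL1) and 5 other pathway genes, IRF3 being the fifth, among 1733 of 13497 genes in all.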

Other observations

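Several classical interferon-stimulated genes had few counts in A549 cells of either group and did not pass the filter on low counts. OAS2 had 1 and 6 counts in control KD 1 and 2 and 3 and 5 in PSME4 KD 1 and 2, and RSAD2, which encodes viperin, had 3 and 8 against 2 and 4. IFI27 had 6 and 3 counts against 1 and 6, IFI44L had 0 and 3 against 0 and 8, and EPSTI1 had 5 and 5 against 6 and 9. IRF7, the factor that amplifies type I interferon production, had 8 and 5 counts against 4 and 7. UBA7, the enzyme that activates ISG15, had 1 and 0 counts in the control libraries and 6 and 7 in the PSME4 KD libraries.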
